A study of Homo sapiens with 6 samples.

Results

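Long intergenic noncoding RNAs (lincRNAs) that carry a numbered LINC symbol were described in an adrenocortical carcinoma cell line. A gene was taken when its symbol was LINC followed by digits and its counts summed to 60 or more over the 6 sequenced libraries, and LINC00523 was left out by the same rule. The members were thus chosen by a measured value, their summed count. This gave 144 of the 57341 named genes in the count table. The table lists 786 such symbols, of which 374 had no count in any library and 267 had between 1 and 59 counts. The rule used no difference between the groups, but the levels below are a description. Just inside the limit were LINC01341 with 60 counts and LINC00870 and LINC00992 with 61 each. Just outside it were LINC01057 with 57 counts and LINC00959 and LINC01037 with 59 each.

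RNA was sequenced from H295R, an established human adrenocortical carcinoma line that makes steroid hormones, and from H295R-PM-Ptc+, cells of that line that were sorted on surface Ptch1, the Hedgehog receptor, and afterwards amplified. Each group had 3 libraries, and all of the cells were untreated and grown in the same low-serum medium. Both groups therefore derive from 1 line, and H295R-PM-Ptc+ is 1 sorted and expanded subpopulation of it. The sources used here do not say whether the replicates were separate cultures, so p-values measure the spread between these libraries, which may be technical. PTCH1 itself was lower under the label H295R-PM-Ptc+, with 441, 559 and 579 counts under H295R and 248, 326 and 319 under H295R-PM-Ptc+ (log2 fold change -0.81, SE 0.15, adjusted p = 0.0207). A supplementary table of the study carries both group names the other way round for these libraries, and the counts alone do not show which naming holds. The level of PTCH1 thus runs against the label of cells sorted on Ptch1, and if the names were exchanged every sign given here would turn. The libraries are therefore called by their labels throughout, and every log2 fold change is libraries labelled H295R-PM-Ptc+ over libraries labelled H295R.

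LincRNAs are transcripts from between protein-coding genes that are mostly spliced and polyadenylated like messenger RNAs but hold no long reading frame. They are usually less abundant than messenger RNAs and often restricted to a tissue or a tumour type. Some act on neighbouring genes or on chromatin, some bind proteins or microRNAs in the cytoplasm, some are precursors of microRNAs, and several that were first named as lincRNAs were later found to encode small proteins.

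Between 23264403 and 25813247 fragments were counted per library, and the members held 0.180% to 0.204% of them. All 144 members had at least 1 count in every library. Of 9 fixed markers of adrenal cortex, 8 reached 1 CPM (counts per 1000000 counts) and CYP11B1, the last enzyme of cortisol synthesis, had 0 to 3 counts per library. None of 4 chromaffin, 3 endothelial or 3 leukocyte markers reached 1 CPM on average over the 6 libraries, and of 4 fibroblast markers only COL1A1 did. Markers of the labelled cell type were thus present, and their summed level was 953 to 1214 CPM under the label H295R and 1058 to 1331 CPM under H295R-PM-Ptc+. Of the 8 markers tested CYP21A2 and SULT2A1, both of steroid metabolism, were higher under H295R-PM-Ptc+ (log2 fold changes 0.88 and 0.60, adjusted p = 0.00670 and 0.0306). The other 6 were not called, with STAR at 0.41, HSD3B2 at 0.01, NR5A1 at -0.06, MC2R at -0.07, CYP17A1 at -0.12 and CYP11A1 at -0.25.

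LINC00657, now named NORAD, was the member with the highest level. Its RNA binds the Pumilio proteins, which repress messenger RNAs, and is known for its part in keeping chromosome numbers stable. NORAD had 11340, 12238 and 12523 counts under the label H295R and 11381, 12338 and 11453 under H295R-PM-Ptc+. The groups overlapped and the log2 fold change was -0.03 (SE 0.08, adjusted p = 0.915). This gene alone gave 25.8% of all member counts. It is a single exon of 5339 bases at chr20:36045622-36050960 on the minus strand (hg38). A search of its sense strand for the Pumilio element TGTANATA found 15 matches, or 2.81 per kilobase. Across the exons of all members this was the highest number, the next being 3 in LINC01266, and 37 members held at least 1. A stretch of 150 bases with 2 of the elements in capitals is shown because it carries what sets this most abundant member apart in sequence (chr20:36049713-36049862, minus strand, hg38).
LINC00657: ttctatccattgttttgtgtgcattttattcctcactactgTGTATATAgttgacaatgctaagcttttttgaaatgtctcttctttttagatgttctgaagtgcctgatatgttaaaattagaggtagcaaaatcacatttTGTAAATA

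Levels between genes were compared as CPM per kilobase of exon. NORAD stood at 91.3 ± 3.14 CPM per kilobase under the label H295R and 89.7 ± 5.44 under H295R-PM-Ptc+ (SD, n = 3). LINC00086 followed with 45.4 ± 9.30 and 43.9 ± 2.50, and LINC01054 with 33.4 and 29.1 CPM per kilobase. The next places were taken by genes that are now known to encode small proteins. LINC01420 (NBDY, a protein of the messenger RNA decapping complex) stood at 22.7 and 21.9 CPM per kilobase. LINC00493 (SMIM26, a mitochondrial protein) stood at 17.2 and 16.8, and LINC00984 (INAFM2) at 16.4 and 14.9. LINC00674 with 15.3 and 15.1 and LINC00998 (SMIM30) with 14.9 and 13.4 closed the first 8. LINC00998 is placed by its deposited length. Its exons on chromosome 7 hold 1896 bases, fewer than that length, and by them its place would rise. From LINC00493 downwards the libraries of neighbouring genes in this order overlapped, and above it they did not. Without division by length, 3 of these 8 stayed among the first 8, and LINC00963 and LINC00461 took places 3 and 4.

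**Figure D1:**
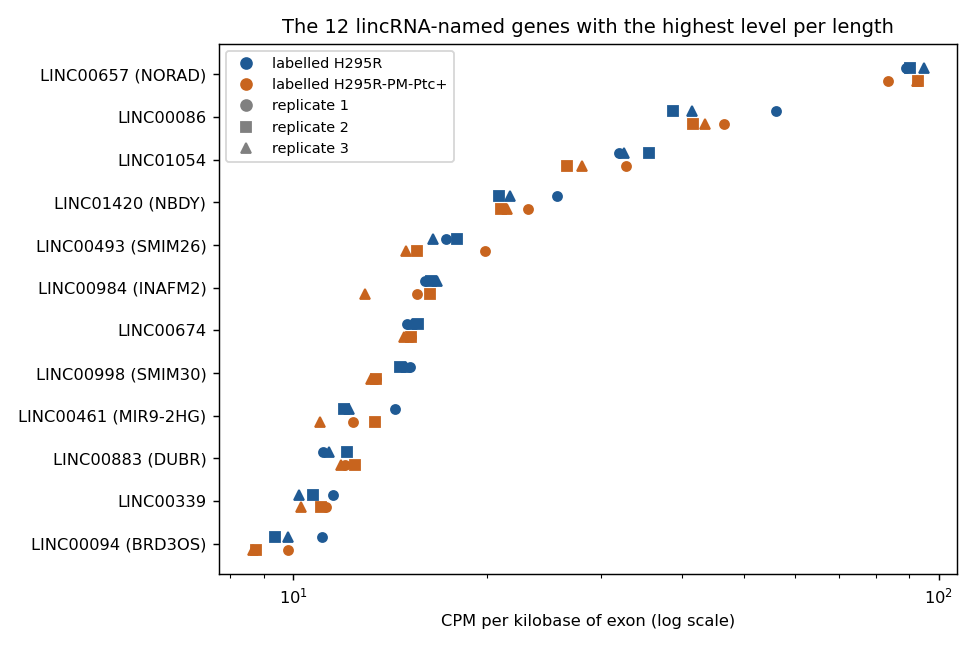
CPM per kilobase of exon (log axis) of the 12 members with the highest level, one point per library, blue for libraries labelled H295R and orange for those labelled H295R-PM-Ptc+, with marker shapes for the replicates. LINC00657 lies apart near 90 and the lower places run close together, with both colours mixed in most rows.

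Most members were rare. The median member had 2.13 CPM, against 19.4 CPM for the median of all genes tested. In all, 39 members were under 1 CPM, 71 between 1 and 10, 32 between 10 and 100, and LINC00657 and LINC00086 above 100 CPM. The 10 members with the most counts held 62.5% of the member counts. The coefficient of variation between replicates had a median of 15.2% and 14.7% for the members in the groups labelled H295R and H295R-PM-Ptc+, and of 10.7% and 9.20% for all genes tested.

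The comparison of the labels asked which members differ between the parental line and its sorted subpopulation. LINC01224 and LINC00662 were lower and LINC00624 was higher under the label H295R-PM-Ptc+ at an adjusted p under 0.05 (edgeR quasi-likelihood test, Benjamini-Hochberg over 16710 genes). These were 3 of the 141 members that passed the filter on low counts, or 2.13%, beside 3.73% of all genes tested. LINC00299, LINC00852 and LINC00242 did not pass the filter. By direction, 2.42% of all genes were called higher and 1.32% lower. At an unadjusted p under 0.05 there were 26 members, 9 higher and 17 lower, or 18.4% beside 17.3% of all genes, where 1604 were higher and 1282 lower. The 3 libraries of one label all lay above the 3 of the other in 36 members, 12 higher and 24 lower, or 25.5% beside 23.5% of all genes (12.4% higher and 11.2% lower). The median log2 fold change of the tested members was -0.05, with 53 values above 0 and 88 below, and that of all genes was 0.00, with 8382 above and 8328 below. Regardless of direction the shares of members lay near those of all genes, while by direction more members were lower than higher and more of all genes were higher than lower. This lean was not tested, and antisense genes, described below, leaned the same way (97 values above 0 and 193 below). In bulk RNA fewer cells that make a transcript and less of it per cell cannot be told apart.

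Replicates with the same number deviated together in both groups, most clearly replicate 1. With the replicate number as a block 20 members passed, 6 higher and 14 lower. This was 14.2% of the tested members, beside 22.5% of all genes (12.1% higher and 10.4% lower). DESeq2 called 7 members (4.96%), beside 5.45% of all genes, and edgeR without a filter on low counts called 10 of 144 (6.94%). Over genes that meet the members' own limit of 60 counts the share without a filter was 6.24%, and over all 30966 genes with a count, many of them too rare to be called, it was 3.59%. Large differences were found among rare members. In the 34 members of 10 CPM or more the largest absolute log2 fold change was 0.39, in LINC00662, and the median was 0.07, beside a median of 0.09 for all tested genes at that level. Under 1 CPM the medians were 0.37 for members and 0.34 for all genes.

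**Figure D2:**
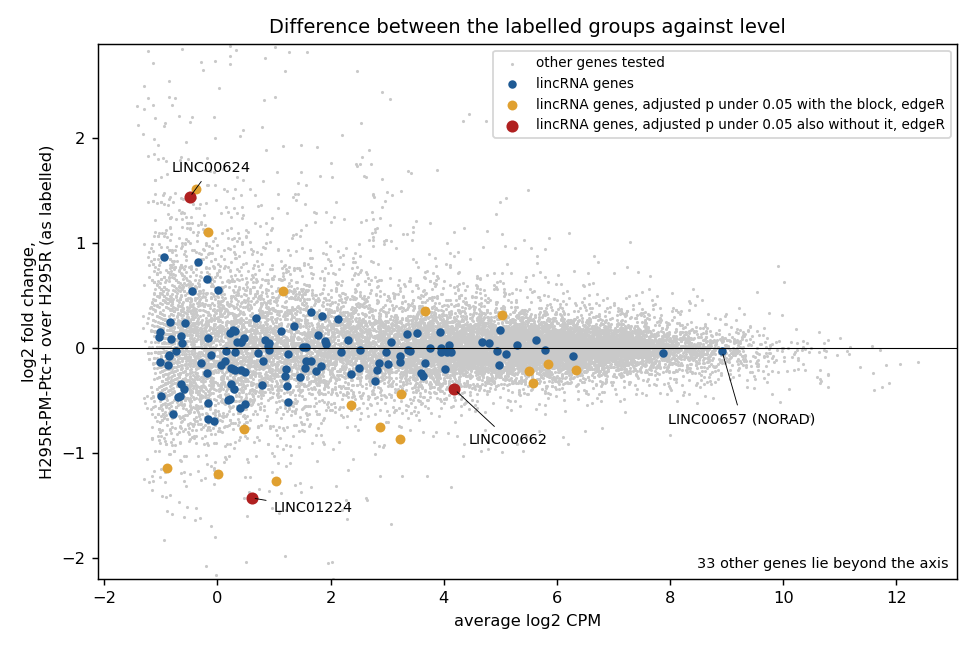
Log2 fold change between the labels against average log2 CPM for all genes tested (grey) and the 141 tested members (coloured). The 3 members called by edgeR with the filter on low counts and no block are red, those that edgeR called when the block was added are orange (some of them were also called by DESeq2 or without a filter), the spread of the members narrows with level like that of the other genes, and 33 other genes lie beyond the axis.

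LINC01224 lies among the zinc finger genes of the short arm of chromosome 19 (chr19:23399233-23416075, minus strand). It had 61, 45 and 49 counts under the label H295R and 21, 12 and 24 under H295R-PM-Ptc+. Every library of the first label lay above every library of the second. The level was 2.10 ± 0.404 CPM and 0.780 ± 0.279 CPM (SD, n = 3), a log2 fold change of -1.43 (SE 0.28, adjusted p = 0.0294, with the block 0.000431). With 1 library left out at a time it ranged from -1.68 to -1.18. The adjusted p was 0.0406 and 0.0477 without H295R replicate 1 and H295R-PM-Ptc+ replicate 3, and 0.0617 to 0.0914 without any of the other 4. The nearest tested gene, ZNF91, begins 3673 bases away and is a repressor of retrotransposons. Its own log2 fold change was 0.00, at an adjusted p of 0.998. Of the 10 nearest tested genes only 1 had a value above 0, with a median of -0.21, and the noncoding gene RP11-255H23.2 fell (log2 fold change -1.23, adjusted p = 0.0371). The RefSeq window from 250 bases before to 50 bases after the start of LINC01224 (chr19:23416025-23416324, minus strand, GRCh38.p14) is shown as the start region of the member with the largest called difference below 0, with the transcribed bases in capitals.
LINC01224: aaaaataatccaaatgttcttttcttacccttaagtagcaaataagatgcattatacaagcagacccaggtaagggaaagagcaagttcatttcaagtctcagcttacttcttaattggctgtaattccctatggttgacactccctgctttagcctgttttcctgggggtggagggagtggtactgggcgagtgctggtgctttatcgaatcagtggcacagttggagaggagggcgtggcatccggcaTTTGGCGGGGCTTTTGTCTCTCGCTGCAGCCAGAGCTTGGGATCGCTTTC

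LINC00662, a lincRNA studied in several carcinomas, lies next to the centromere on the long arm of the same chromosome (chr19:27684580-27793940, minus strand). It had 508, 527 and 491 counts under the label H295R and 425, 379 and 352 under H295R-PM-Ptc+. The groups did not overlap. Its level was 20.6 ± 0.708 and 15.7 ± 0.810 CPM, a log2 fold change of -0.39 (SE 0.09, adjusted p = 0.0416, with the block 0.000845). The change was small and even, and with any 1 library left out its adjusted p rose to between 0.0537 and 0.167. An exon of LINC00662 shares bases with an exon of CTC-459F4.3 on the other strand, a noncoding gene that also fell (log2 fold change -0.37, adjusted p = 0.0411). Fragments were counted by strand per the study's methods, and how far these values depend on each other was not tested. The start window of LINC00662 (chr19:27793891-27794190, minus strand, GRCh38.p14, RefSeq) is shown with the transcribed bases in capitals, since it holds the element CAAGGTCA of the adrenal factor NR5A1, which begins 38 bases before the start.
LINC00662: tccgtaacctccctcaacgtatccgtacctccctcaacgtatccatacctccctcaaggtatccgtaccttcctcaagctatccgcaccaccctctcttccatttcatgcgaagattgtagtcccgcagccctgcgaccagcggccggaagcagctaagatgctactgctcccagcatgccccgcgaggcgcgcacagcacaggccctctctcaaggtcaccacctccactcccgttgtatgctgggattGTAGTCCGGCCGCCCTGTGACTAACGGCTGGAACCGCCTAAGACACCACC

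LINC00624 was the member that rose. It overlaps CHD1L, the gene of a chromatin remodeller on the opposite strand (chr1:147258885-147517875, minus strand). It had 9, 11 and 5 counts under the label H295R and 26, 20 and 22 under H295R-PM-Ptc+. All 3 libraries of the second label were higher, at 0.924 ± 0.109 CPM against 0.337 ± 0.120 CPM. The log2 fold change was 1.44 (SE 0.31, adjusted p = 0.0419, with the block 0.00620). With any 1 library left out the adjusted p lay between 0.0542 and 0.151. CHD1L, with which it shares exon bases, had 10283 counts over the libraries beside 93 for LINC00624, and a log2 fold change of 0.13 (adjusted p = 0.482). Among the 10 nearest tested genes 8 had a value above 0. GJA5, which encodes a gap junction protein, had 3, 4 and 5 counts under the label H295R and 26, 17 and 18 under H295R-PM-Ptc+, a log2 fold change of 2.32 (adjusted p = 0.00845). FMO5, a monooxygenase gene, was at 0.65 (adjusted p = 0.113, with the block 0.000615) and BCL9, a coactivator of Wnt signalling, at 0.13. RP11-337C18.8 and RP11-337C18.9 were below 0, at -0.78 and -0.46 (adjusted p = 0.263 and 0.292). The median of the 10 was 0.12.

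The 10 largest differences among members without overlap between the labels included LINC01224 and LINC00624 and 8 members not called by edgeR with the filter and without the block. Of these 8, LINC01378, LINC00944 and LINC00263 were called by DESeq2 (adjusted p = 0.0139, 0.0253 and 0.0460), and edgeR without a filter called the same 3 and LINC01085 and LINC01257 (adjusted p = 0.00214 to 0.0467). LINC01085 had 4, 13 and 9 counts under the label H295R and 35, 25 and 15 under H295R-PM-Ptc+ (log2 fold change 1.52, SE 0.42, adjusted p = 0.0877, with the block 0.00875). LINC01378 had 102, 44 and 59 counts against 37, 28 and 20 (log2 fold change -1.27, SE 0.35, adjusted p = 0.0925, with the block 0.000539). In LINC01378 the library labelled H295R replicate 1 stood far above the other two of its label. LINC01257 had 11, 12 and 15 counts against 23, 39 and 20 (log2 fold change 1.11, SE 0.32, adjusted p = 0.103, with the block 0.0161). LINC00944 had 285, 213 and 173 counts against 172, 109 and 116 (log2 fold change -0.76, SE 0.23, adjusted p = 0.113, with the block 0.000217). Here the highest library labelled H295R-PM-Ptc+ and the lowest labelled H295R nearly met, and both labels had their highest value in replicate 1. LINC01186 had 46, 36 and 40 counts against 28, 23 and 20 (log2 fold change -0.77, adjusted p = 0.0941, with the block 0.0199). LINC00926 and LINC00987, both under 1 CPM, were at 0.82 and 0.87 on the log2 scale and were called with none of these settings. LINC00987 was at 0.55 without H295R replicate 3 and at 1.19 without H295R replicate 2.

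LINC00263, now named OLMALINC, is the remaining gene of these 10. It lies 8781 bases from SCD, which encodes the desaturase that makes monounsaturated fatty acids. It had 446, 205 and 228 counts under the label H295R and 205, 163 and 117 under H295R-PM-Ptc+. The labels met at 205 counts and were apart after normalization only by a small margin. Replicate 1 was the highest library in both labels, and under the label H295R it held about as many counts as the other two together. The log2 fold change was -0.87 (SE 0.31, adjusted p = 0.188, with the block 0.000369). Without H295R replicate 1 it was -0.40 (adjusted p = 0.257), and with any 1 library left out it ranged from -1.09 to -0.40 and was not called. Without replicate 1 of both labels, a setting added after seeing the data, it was -0.57 (adjusted p = 0.0324). SCD also had its highest library in replicate 1 of both labels, with 53672, 36197 and 37035 counts against 35273, 24270 and 21646 (log2 fold change -0.65, adjusted p = 0.123, with the block 8.43e-08). The start window of OLMALINC (chr10:100373326-100373625, plus strand, GRCh38.p14, RefSeq) lies between the 2 genes and is shown for that reason, with the transcribed bases in capitals.
LINC00263: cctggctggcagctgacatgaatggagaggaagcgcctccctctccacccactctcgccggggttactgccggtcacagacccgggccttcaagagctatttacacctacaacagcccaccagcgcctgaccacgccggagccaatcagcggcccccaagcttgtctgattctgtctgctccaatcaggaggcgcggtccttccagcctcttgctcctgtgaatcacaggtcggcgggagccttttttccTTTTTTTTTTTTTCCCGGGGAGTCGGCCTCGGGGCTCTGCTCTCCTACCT

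**Figure D3:**
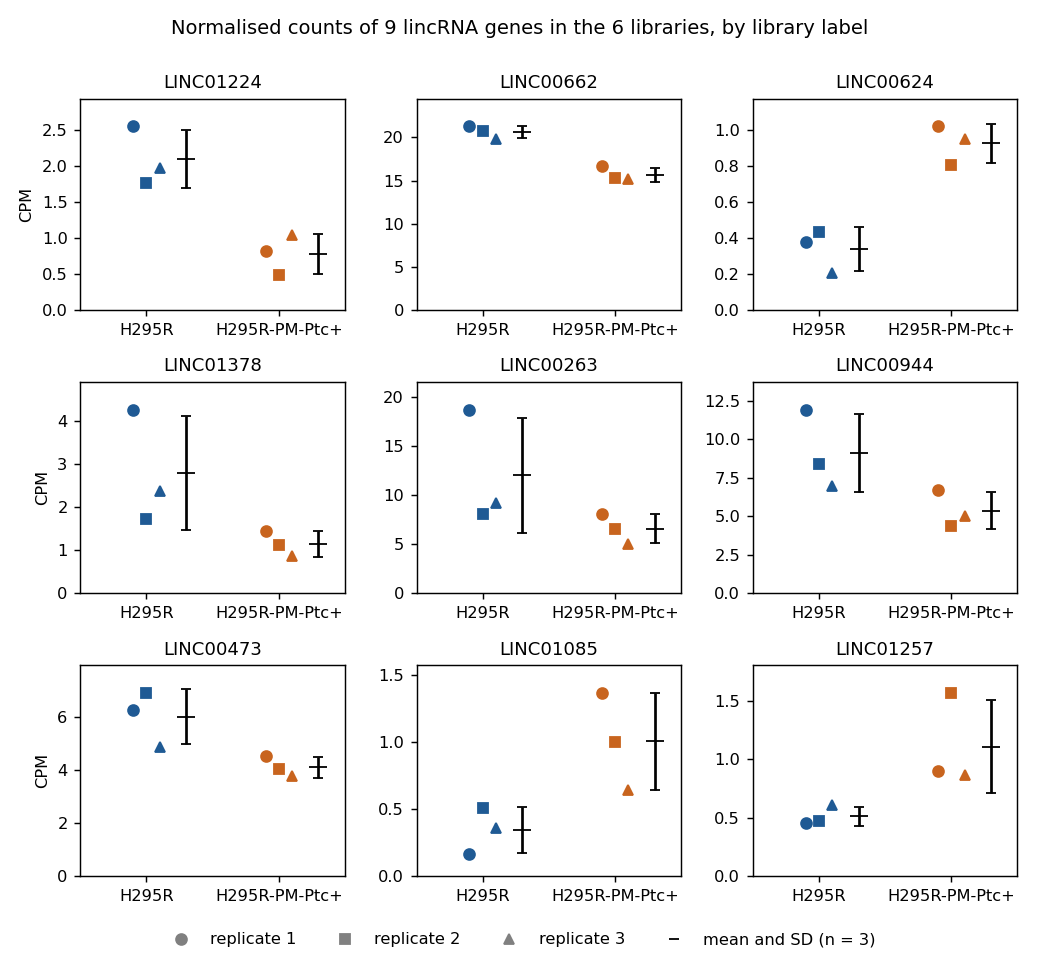
CPM of 9 members in the 6 libraries by label, with the mean and SD of 3 libraries beside the points (axes start at 0, marker shape gives the replicate). The labels do not overlap in any of the 9 panels, and in LINC01378, LINC00263, LINC00944 and, by a small margin, LINC00662 replicate 1 is the highest library of both labels.

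Among 18 lincRNAs well studied in cancer, 12 were members and LINC00662 alone was called, while LINC00473 and LINC00963 also passed with the block. These 1 and 3 of 12 stand beside 3.73% and 22.5% of all genes. An unadjusted p under 0.05 was found in 4 of 12, beside 17.3% of all genes. With 12 genes these counts are too low to compare. LINC00473 is induced by cyclic AMP through the factor CREB. It had 149, 175 and 120 counts against 116, 100 and 87, with no overlap (log2 fold change -0.54, SE 0.16, adjusted p = 0.117, with the block 0.00660). PDE10A, a phosphodiesterase gene that degrades cyclic AMP and overlaps its span, was at -0.70 (adjusted p = 0.101, with the block 0.000266). LINC00963 was at 86.1 ± 0.732 and 74.7 ± 4.19 CPM (log2 fold change -0.21, adjusted p = 0.181, with the block 0.00715). LINC00665 was at 29.9 ± 1.10 and 33.7 ± 0.687 CPM (log2 fold change 0.17, adjusted p = 0.263). In LINC00665 the labels did not overlap, and in LINC01021 they did. LINC01021 (PURPL), a target of p53, was at 3.14 ± 0.258 and 3.89 ± 0.448 CPM, the highest log2 fold change of the list at 0.31 (adjusted p = 0.352). With the names exchanged LINC01021 would be the lowest of the list and LINC00473 the highest. LINC01139 was at -0.48 (adjusted p = 0.329) and LINC00467 at -0.15 (adjusted p = 0.559). LINC00152 (CYTOR), LINC00261, LINC00511, LINC00858 and NORAD lay between -0.05 and 0.08. LINC00312, LINC00460, LINC00520, LINC00673, LINC00707 and LINC01133 did not reach the count limit.

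None of the small-protein genes on the fixed list was called by edgeR, DESeq2 or limma-voom, and 1, LINC00998, had an unadjusted p under 0.05. Of 7 genes, 5 were members, and LINC00961 and LINC00948 did not reach the limit. LINC00998 (SMIM30) had 803, 824 and 818 counts against 761, 739 and 677, with no overlap (log2 fold change -0.16, SE 0.07, adjusted p = 0.280). LINC00116 (MTLN, mitoregulin, a protein of the mitochondrial inner membrane) had 122, 106 and 120 counts against 146, 106 and 115 (log2 fold change 0.08). LINC01420 was at -0.05, LINC00493 at -0.04 and LINC00086 at -0.05 on the log2 scale, with SE of 0.10, 0.12 and 0.13. By symbol or older name, 10 members matched a gene that is protein-coding in RefSeq. LINC01279 is among them through an older name of CCDC80, which is a separate tested gene 2658 bases away in these data. LINC00086 had no match and is not among them. None of these 10 was called by any of the 3 tools and 2 had an unadjusted p under 0.05, while LINC00094 (BRD3OS) and LINC00634 (SMIM45) passed with the block, at -0.15 and -1.14. Over all genes 3.73% were called, 17.3% had an unadjusted p under 0.05 and 22.5% passed with the block, so these counts of 10 lay near the background.

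Members that carry microRNA hairpins were examined next, since a host transcript and its microRNA come from 1 precursor. In RefSeq 9 hairpins lay within the span and on the strand of 6 members. LINC00461 (MIR9-2HG), at 79.5 ± 8.23 and 75.6 ± 7.42 CPM, hosts miR-9, which is known from the nervous system. LINC00478 (MIR99AHG), at 30.8 ± 1.12 and 30.2 ± 1.39 CPM, hosts miR-99a and let-7c. LINC00472, at 1.42 ± 0.253 and 1.21 ± 0.278 CPM, hosts 2 members of the miR-30 family with the same seed. Their 5p arms are printed, with the seed (bases 2 to 8), which decides the target messages, in capitals.
hsa-miR-9-5p: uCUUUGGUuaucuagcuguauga
hsa-miR-99a-5p: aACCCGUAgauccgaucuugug
hsa-let-7c-5p: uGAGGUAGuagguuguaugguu
hsa-miR-30a-5p: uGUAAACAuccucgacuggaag
hsa-miR-30c-5p: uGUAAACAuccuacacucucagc
The log2 fold changes of LINC00461, LINC00478 and LINC00472 were -0.07 (SE 0.10), -0.03 (SE 0.08) and -0.23 (SE 0.24), and none was called with or without the block or had an unadjusted p under 0.05. LINC00669 (MIR924HG) was at -0.27, LINC00969 (MIR570HG) at 0.05 and LINC00869 at -0.04. LINC00632, the host of the circular RNA CDR1as, was at 0.29 (SE 0.22, adjusted p = 0.577), and under the label H295R-PM-Ptc+ leaving out replicate 3 gave 0.10 and leaving out replicate 1 gave 0.44. LINC00599 and LINC00338 did not reach the count limit. The microRNAs themselves are too short for these libraries and were not measured.

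Several abundant members with small differences passed with the block and not without it in the edgeR test with the filter on low counts. LINC00938 had 1396, 1204 and 1350 counts against 1126, 1042 and 956 (log2 fold change -0.33, SE 0.09, adjusted p = 0.0857, with the block 0.000750, without a filter 0.0477). LINC00667 had 637, 781 and 730 counts against 928, 842 and 880 (log2 fold change 0.31, SE 0.09, adjusted p = 0.0863, with the block 0.00286). In both members the libraries of the labels did not overlap. LINC00667 shares exon bases with the member LINC00526 on the opposite strand. LINC00235 was at -0.43 (adjusted p = 0.0671, with the block 0.00352, with DESeq2 0.0479), LINC01296 (DUXAP9) at -0.22 (adjusted p = 0.155, with the block 0.00971) and LINC01128 at 0.36 (adjusted p = 0.140, with the block 0.0113). Of the rare members, LINC00844 had 44, 33 and 18 counts against 21, 12 and 8. Its labels overlapped, while H295R lay above H295R-PM-Ptc+ in all 3 same-numbered pairs (log2 fold change -1.20, adjusted p = 0.167, with the block 0.00368, without a filter 0.0322). LINC01060 was at 0.55 (adjusted p = 0.137, with the block 0.0357).

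Position was not used to choose the members. The nearest tested gene that was no member lay at a median distance of 7.86 kilobases, and its log2 fold change had the same sign as that of the member in 87 of 141 pairs (61.7%). Across these pairs, which share all libraries, Spearman's rho was 0.24 and Pearson's r 0.13. With the median of the 10 nearest genes in place of the nearest one, rho was 0.08. No such share was computed for other genes. Some genes were nearest to more than a single member, and 30 members overlapped the span of their nearest gene. LINC00476 (ERCC6L2-AS1) is the member beside PTCH1. It had 164, 141 and 133 counts against 129, 138 and 115, with overlap between the labels (log2 fold change -0.19, SE 0.14, adjusted p = 0.551). All 10 of its nearest genes were below 0, with a median of -0.39. It was the member in the stretch of 9q22 to q31, LINC00665 that in 19q13 and LINC00852, which was not tested, that in 3p25, with no member in 2q32 to q33. In all, 16 members shared exon bases with an expressed gene on the opposite strand and 8 with one on the same strand. The largest numbers of shared 31-base stretches, on either strand, were 1238 between LINC00893 and LINC00894 and 1223 between LINC01001 and LINC01002. LINC00526 and LINC00667 shared 743, LINC01347 and LINC01002 558, and LINC00086 and LINC00087 464.

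The start windows of 106 members were in the RefSeq table and were searched on both strands for 4 motifs. CAAGGTCA, bound by NR5A1, was in 3 windows (2.83%), those of LINC01096, LINC00938 and LINC00662, beside 1.28% of 35116 windows of all genes. TGACGTCA, bound by CREB, was in 2 (1.89%), those of LINC00265 and LINC00630, beside 1.85%. Few members thus held either motif. TATAAA was in 13 (12.3%), beside 11.5%. GACCACCCA, bound by the GLI factors of Hedgehog signalling, was in none, beside 0.236% of all windows. These matches are letters in a window and not measured binding.

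The members varied between replicates in a way that the labels do not describe. In 53 of the 141 tested members (37.6%) replicate 1 was the highest of 3 libraries in both labels, and in 8 (5.67%) it was the lowest in both. Over all genes tested these shares were 27.1% and 26.4%. The excess of one direction was seen at matched level. Among members of 10 CPM or more, replicate 1 was highest in both labels in 17 of 34 and lowest in 3 (8.82%), beside 27.8% and 34.9% of all genes of that level. Among members of 1 to 10 CPM the shares were 38.0% and 2.82%, beside 29.1% and 14.7%. In rare members the difference from all genes was smaller. Below 1 CPM, 9 of 36 were highest and 8.33% lowest, beside 19.8% and 10.7%. The median member lay 0.13 higher in H295R replicate 1 and 0.12 higher in H295R-PM-Ptc+ replicate 1 than the mean of the other replicates of its label on the log2 scale, where all genes had a median of 0.01 in both.

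**Figure D4:**
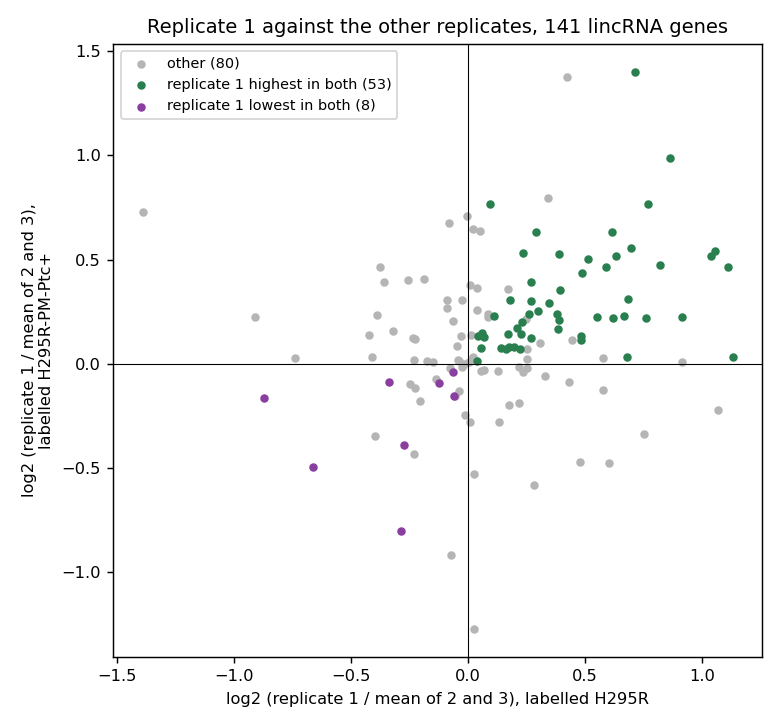
Log2 ratio of replicate 1 to the mean of replicates 2 and 3 for the 141 tested members, under the label H295R (horizontal) and H295R-PM-Ptc+ (vertical). The 53 members highest in replicate 1 in both labels fill the upper right and the 8 lowest in both lie at the lower left.

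Antisense genes, named with the ending AS and a number, and the host genes of small RNAs were read the same way. In antisense genes replicate 1 was highest in both labels in 89 of 290 (30.7%) and lowest in 20 (6.90%), and 40.7% and 3.70% at 10 CPM or more. In the 18 small nucleolar RNA host genes 6 were highest and 1 lowest, and in the 12 microRNA host genes 2 (16.7%, below the 27.1% of all genes) and 1, counts too low to compare. OLMALINC, LINC00086, LINC01378 and LINC00944 are examples among the members. In LINC00086 the counts were 7002, 5145 and 5364 against 6225, 5411 and 5257, so that replicate 1 differed from its own label by more than the labels differed from each other (log2 fold change -0.05, SE 0.13). No test was made of this pattern. Libraries of equal replicate number carry the same code in both labels, and what the code stands for is not given in the sources used here.

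Other long noncoding RNAs were read from the same fit to place the members. Of 290 antisense genes 9 were called (3.10%) and 44 with the block (15.2%), with a median log2 fold change of -0.11. Among them 97 values lay above 0 and 193 below. In the small nucleolar RNA host genes these were 10 and 8, and in the microRNA host genes 6 and 6. Without overlap between the labels, 19 antisense genes were higher and 46 lower. None of 18 small nucleolar RNA host genes and none of 12 microRNA host genes named with HG was called, while 2 and 3 of them had an unadjusted p under 0.05 and 2 and 4 passed with the block. Of 12 well known long noncoding RNAs, H19, an imprinted RNA of fetal tissue and adrenal cortex, rose (79, 73 and 61 counts against 116, 123 and 128, log2 fold change 0.79, adjusted p = 0.0317). In this class 4 of 12 had an unadjusted p under 0.05, 1 higher and 3 lower, and 7 passed with the block, 3 higher and 4 lower (58.3% beside 22.5% of all genes).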

How the data were processed

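RNA from 3 H295R and 3 H295R-PM-Ptc+ libraries was sequenced in paired reads. The labels name a total RNA kit and polyA RNA, and the methods name a stranded mRNA kit. The authors aligned reads to hg38 with STAR 2.4.0a and counted fragments per gene name, by strand and with multiply mapped reads at their primary place, with featureCounts on an Ensembl annotation (Subread 1.5.0-p3 in the submitters' processing notes, an earlier release in the methods). They deposited raw counts of 6 libraries, of which all columns were used, with no normalization. No count lay in a row without a gene name.

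All genes were tested together with edgeR 4.0.16 in R 4.3.3 (TMM factors, filterByExpr, glmQLFit and glmQLFTest, two-sided, label as the only term, Benjamini-Hochberg over 16710 genes at 0.05). The SE is the absolute log2 fold change over the root of F. CPM used TMM-scaled library sizes and lengths came from the deposited table. The script was tested on simulated data. Alternatives were DESeq2 1.42.0, limma-voom 3.58.1, relative log expression (RLE) size factors, 2 other filters, the replicate number as a block, and leaving out each library. Leaving out both replicate 1 libraries and splitting the replicate pattern by level were added after seeing the data. Replicate numbers, which stand for codes shared by both labels, were taken to pair the labels. Deviations from the label mean of log2 CPM correlated across genes at 0.497, 0.307 and 0.228 for libraries of equal number and at -0.352 to 0.150 for the rest. Among the rest, replicates 2 and 3 also correlated across numbers, at 0.150 and 0.109, so only replicate 1 stood clearly apart. The methods state no pairing, so the block was kept as an alternative.

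The members, lists and rules were chosen with earlier results of these data known. Named were all called members, the 10 largest differences without overlap, the 8 highest levels per length, the 3 genes on each side of the limit, the fixed lists and the members of 4 chromosome stretches (band limits rounded to megabases). LINC00235, LINC00938, LINC00667, LINC01296, LINC01128, LINC00844, LINC00634, LINC00094, LINC01060, LINC00476, the hosts found by position and neighbouring genes were named after their values were seen. Of the members, 110 matched RefSeq by symbol, 31 by an older name and 3 not. Python 3.11.15, pandas 2.3.3 and matplotlib 3.10.9 served for tables and plots.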

Additional observations from a re-analysis of the deposited data

How the results depend on the processing

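The number of called members depended on the settings. It was 3 with RLE size factors and with limma-voom, 2 with at least 10 counts in every library (0 higher, 121 members tested), 7 with DESeq2 (6 lower), 10 without a filter (3 higher, 7 lower, of 1111 genes in all) and 20 with the replicate block (6 higher, 14 lower, of 3758 genes in all, against 624 without it). LINC01224, LINC00662 and LINC00624 were among those called each time, except LINC00624 at 10 counts in every library, where it had fewer counts than the filter asks. With 1 library left out the number was 0 to 1 (0 higher, 0 to 1 lower). In all, 278 genes were called without replicate 2 and 219 without replicate 3 of H295R, 247 without replicate 2 and 257 without replicate 3 of H295R-PM-Ptc+, and up to 810 with another library left out. The median log2 fold change of the members then lay between -0.14, without H295R replicate 3, and -0.045. Without both replicate 1 libraries 10 members were called (1 higher, 9 lower) of 2013 genes. The cause of these shifts was not tested. Without division by length 3 of the first 8 levels were kept.

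No called member changed sign, and 13 of the 36 named members covered by this check, all uncalled, did. Members named after their values were seen are not among the 36. With 1 library left out their log2 fold changes ran from -0.15 to 0.13 in LINC00086, -0.037 to 0.18 in LINC00116, -0.059 to 0.14 in LINC00261, -0.14 to 0.016 in LINC00461, -0.060 to 0.0013 in LINC00478, -0.18 to 0.029 in LINC00493, -0.20 to 0.10 in LINC00511, -0.060 to 0.016 in LINC00657, -0.33 to 0.069 in LINC00858, -0.79 to 0.18 in LINC00870, -0.17 to 0.59 in LINC00992, -0.12 to 0.36 in LINC01341 and -0.11 to 0.039 in LINC01420. Without both replicate 1 libraries LINC00086 was at 0.084, LINC00461 at 0.011, LINC00657 at 0.0034 and LINC01341 at -0.069. With 39 members under 1 CPM and 71 between 1 and 10, counting error limits small differences.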

Other observations

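LINC genes below the count limit were read from the same counts. Of 267 with 1 to 59 counts, 2 passed the filter on low counts and none was called. LINC01057, just outside the limit, had 5, 7 and 2 counts under the label H295R and 18, 13 and 12 under H295R-PM-Ptc+ (log2 fold change 1.60, edgeR adjusted p = 0.0736, with the block 0.0134). It was the only one of the 267 called when no filter was applied (adjusted p = 0.0433). With a limit of 30 or 120 counts in place of 60 the rule would have taken 174 or 114 genes.

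Among the other long noncoding RNAs, MEG3, an imprinted RNA studied as a growth suppressor, had a mean level of 503 CPM over the 6 libraries. Its counts were 13275, 11286 and 8642 under H295R and 16169, 15820 and 9287 under H295R-PM-Ptc+, with the lowest value in replicate 3 of both labels (log2 fold change 0.31, adjusted p = 0.505, with the block 0.00112). NEAT1, the scaffold of nuclear paraspeckles, had 1396, 1304 and 947 counts against 1948, 1629 and 984 (log2 fold change 0.32, adjusted p = 0.511, with the block 0.00110). MALAT1 was at 0.02 (adjusted p = 0.979, with the block 0.774). PVT1, with 122, 130 and 112 counts against 72, 86 and 86, was at -0.56 (adjusted p = 0.0856, with the block 0.0106), and its labels did not overlap.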
